A study of Homo sapiens with 10 samples.

Results

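The ERVK rows of a transposable element (TE) table were followed through knockdown of 4 chromatin and transcription factors in human embryonic stem cells. ERVK is the class of endogenous retroviruses that includes HERV-K. A row was taken as ERVK where the deposited identifier placed it in that family of the LTR class, and no measured value entered the choice. There were 38 such rows among 14785 rows of the table, which also held 13808 genes, 973 TE subfamilies in all and 4 transfer RNA rows. Of the 38 rows, 10 are internal parts of proviruses (names ending in -int) and 28 are long terminal repeats (LTRs).

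The cells were H1, an established human embryonic stem cell line, grown without feeder cells on Matrigel. They received short hairpin RNAs (shRNAs) by virus and were selected with puromycin, and all groups, controls included, went through this. The 5 groups were shLUC, a hairpin against luciferase that serves as the control, and shSMARCA4, shMAFK, shE2F6 and shKDM1A, each with 2 libraries that the study calls biological duplicates. SMARCA4 is the ATPase of the BAF chromatin remodelling complex, MAFK a small MAF transcription factor, E2F6 a repressive E2F factor and KDM1A a histone demethylase. The labels give the genotype as wild type, no time after infection, and neither the sequence nor the number of hairpins for a target.

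A complete ERVK provirus carries gag, pro, pol and env genes in its internal part, with an LTR at each end that holds the promoter and the polyadenylation signal. Most copies in the human genome have been reduced by recombination to a solo LTR, so an LTR row gathers solo LTRs and the ends of proviruses together. The human ERVK groups are named HML-1 to HML-10, and all 38 rows could be placed in them by name, with 1 internal part for each group. HML-2 is the youngest group and the one with the most intact reading frames. Its LTR5_Hs promoter is known to be active in human embryonic stem cells and in the early embryo, where pluripotency factors bind it. KRAB zinc finger proteins recruit TRIM28 and SETDB1 to many ERVK copies, and these deposit repressive histone methylation.

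Values are normalized tag counts, the unit that the deposited table abbreviates, and they are not raw counts. Read depth is unknown, since the normalization set the totals to between 22836548 and 22855295 and the median of all rows to 594 in every library. With each library sorted by size, 80.3% of ranks had 1 value common to all 10, a form that quantile normalization would leave. An equal value in several libraries, such as 3780 for HERVK-int in both controls, may therefore mark a shared rank and not an equal number of reads, and an SD of 0 there is no measure of precision. From the next lower to the next higher value in a library, the span was 0.227% to 1.48% of the HERVK-int value. Around HERVK11-int it was 0.331% to 1.03%, so a step of rank there is small beside the differences given. Each TE row sums the copies of a subfamily, whose positions were not given. The table gives no length, so the level of a row was not ranked against that of another. Shares and ratios of rows given below are compared only between libraries. Changes are differences of group means of log2(value + 1), tested with limma and adjusted by Benjamini-Hochberg over all 14785 rows, and a row counts as changed at an adjusted p under 0.05. The 4 comparisons with shLUC share its 2 libraries.

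The knockdowns were checked on their target genes. SMARCA4 was 8086 and 8374 in the shLUC libraries and 1100 and 985 in shSMARCA4 (log2 change -2.98, limma adjusted p = 8.55e-05). KDM1A was 6344 and 5925 in shLUC and 3290 and 1879 in shKDM1A (log2 change -1.30, limma adjusted p = 0.132). E2F6 was 491 and 553 in shLUC and 336 and 304 in shE2F6 (log2 change -0.70, limma adjusted p = 0.774). MAFK was 212 and 288 in shLUC against 82 and 216 in shMAFK, where the second library overlapped the control (log2 change -0.89, limma adjusted p = 0.572). The MAFK value of that library does not check its label, and directions given for shMAFK carry this limit. Only the SMARCA4 target passed the threshold. All 10 pluripotency markers listed were in the table, with summed values from 143224 to 268548 and no single value under 1640. The highest sum was in shKDM1A replicate 1, where POU5F1 was 148866, against 35710 in replicate 2 and in both shLUC libraries. Elsewhere POU5F1 ranged from 16615 in shE2F6 replicate 2 to 51684 in shSMARCA4 replicate 1. The value 35710 also stood for DNMT3B in shE2F6 replicate 1. Steps between values this high were not examined, so the size of the POU5F1 differences is uncertain. Of 6 mesendoderm symbols, among which T and TBXT name the same gene, 2 were in the table (EOMES and MIXL1). The sum of EOMES and MIXL1 was 34 and 48 in shLUC, 4239 and 856 in shSMARCA4 and 10 to 58 in the other groups. Of 4 trophoblast markers only KRT7 was in the table, at 30 and 44 in shSMARCA4 against 218 and 296 in shLUC, and none of 3 neuroectoderm markers was. In such bulk libraries, fewer cells that express an element and less RNA per cell cannot be told apart.

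All 38 ERVK rows had a value above 0 in all 10 libraries, from 38 to 8496. Most of them varied little. The highest library stood at no more than 2 times the lowest in 33 of 38 rows. The median of this ratio was 1.57 over the internal parts and 1.61 over the LTRs. The widest ranges belonged to a pair of internal parts: the ratio was 7.9 for HERVK-int, the HML-2 provirus body, and 4.81 for HERVK11-int, the HML-8 provirus body. The next were the LTRs LTR22B2 at 2.66, LTR13_ at 2.27 and LTR22C0 at 2.11, all with low values.

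HERVK-int was low after knockdown of SMARCA4 and high after knockdown of MAFK. It was 3780 in both shLUC libraries. The shSMARCA4 libraries held 1166 and 1764 and the shMAFK libraries 6012 and 8496. The shE2F6 libraries held 2282 and 3474, and the shKDM1A libraries 1076 and 3474. Both shMAFK libraries lay above the controls, and the 6 libraries of the other knockdowns lay below them. The higher shMAFK value, 8496, was in the library labelled shMAFK replicate 2, whose MAFK value of 216 lay within the control range. Replicate 1, at 6012, had the MAFK value of 82.

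Against shLUC none of these differences passed the threshold. The shSMARCA4 mean was 1465 ± 423 (SD, n = 2), 38.8% of the shLUC mean of 3780, and lay -1.40 from it on the log2 scale (SE 0.48), with an adjusted p of 0.169 in limma over all 10 libraries. The shMAFK mean was 7254 ± 1760 (SD, n = 2), 192% of the control, with a log2 change of 0.92 (limma adjusted p = 0.656). The shE2F6 mean was 2878 ± 843 (SD, n = 2), 76.1% of the control, and the shKDM1A mean was 2275 ± 1700 (SD, n = 2), 60.2%. The shared estimate of the spread takes in the shKDM1A libraries, whose HERVK-int values were farthest apart on the log2 scale. Without both of them the shSMARCA4 difference passed, at a limma adjusted p of 0.0158, and it also passed with a weight for each group (0.0175) and in a fit of shSMARCA4 and shLUC alone (0.0138). In shKDM1A the log2 change was -1.81 without replicate 2 (limma adjusted p = 0.00733) and -0.12 without replicate 1.

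The knockdown groups with the highest and the lowest HERVK-int were then compared directly, a comparison chosen after these values were seen. HERVK-int was higher in shMAFK than in shSMARCA4 by 2.32 on the log2 scale (SE 0.48, limma adjusted p = 0.0202). Both shMAFK libraries were above both shSMARCA4 libraries. The difference was 2.02 to 2.62 when any 1 of these 4 libraries was left out, and the adjusted p was then 0.0655 to 0.157, no longer past the threshold. In a fit of TE rows alone it was 0.444. An F-test over the 4 knockdown groups gave an adjusted p of 0.0587 for HERVK-int.

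The LTRs of HML-2 spread much less than the internal part. LTR5_Hs, the youngest of them, was 1697 and 1930 in shLUC, 1402 and 1640 with SMARCA4 knockdown, 1780 and 2484 with MAFK knockdown, 1483 and 1614 with E2F6 knockdown, and 1444 and 1842 with KDM1A knockdown. Its log2 change was 0.22 in shMAFK, the only positive one, against -0.26 in shSMARCA4, -0.23 in shE2F6 and -0.15 in shKDM1A, and none passed. The shMAFK and shKDM1A libraries overlapped the controls. In shMAFK, replicate 1 lay -0.02 from the shLUC mean on the log2 scale and replicate 2 lay 0.46 from it, so the sign rests on replicate 2. The direct difference between shMAFK and shSMARCA4 was 0.47 (limma adjusted p = 0.229), with the 2 groups apart.

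The older HML-2 LTRs also stayed in a narrower range than HERVK-int. LTR5A was 1170 and 1178 in shLUC and lay between 990 and 1418 in the other libraries, apart from 736 in shKDM1A replicate 1. LTR5B was 1208 and 1170 in shLUC and 998 to 1548 elsewhere. Their log2 changes lay between -0.28 and 0.18, and none passed the threshold. A row for LTR5 itself was not analysed here.

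**Figure D1:**
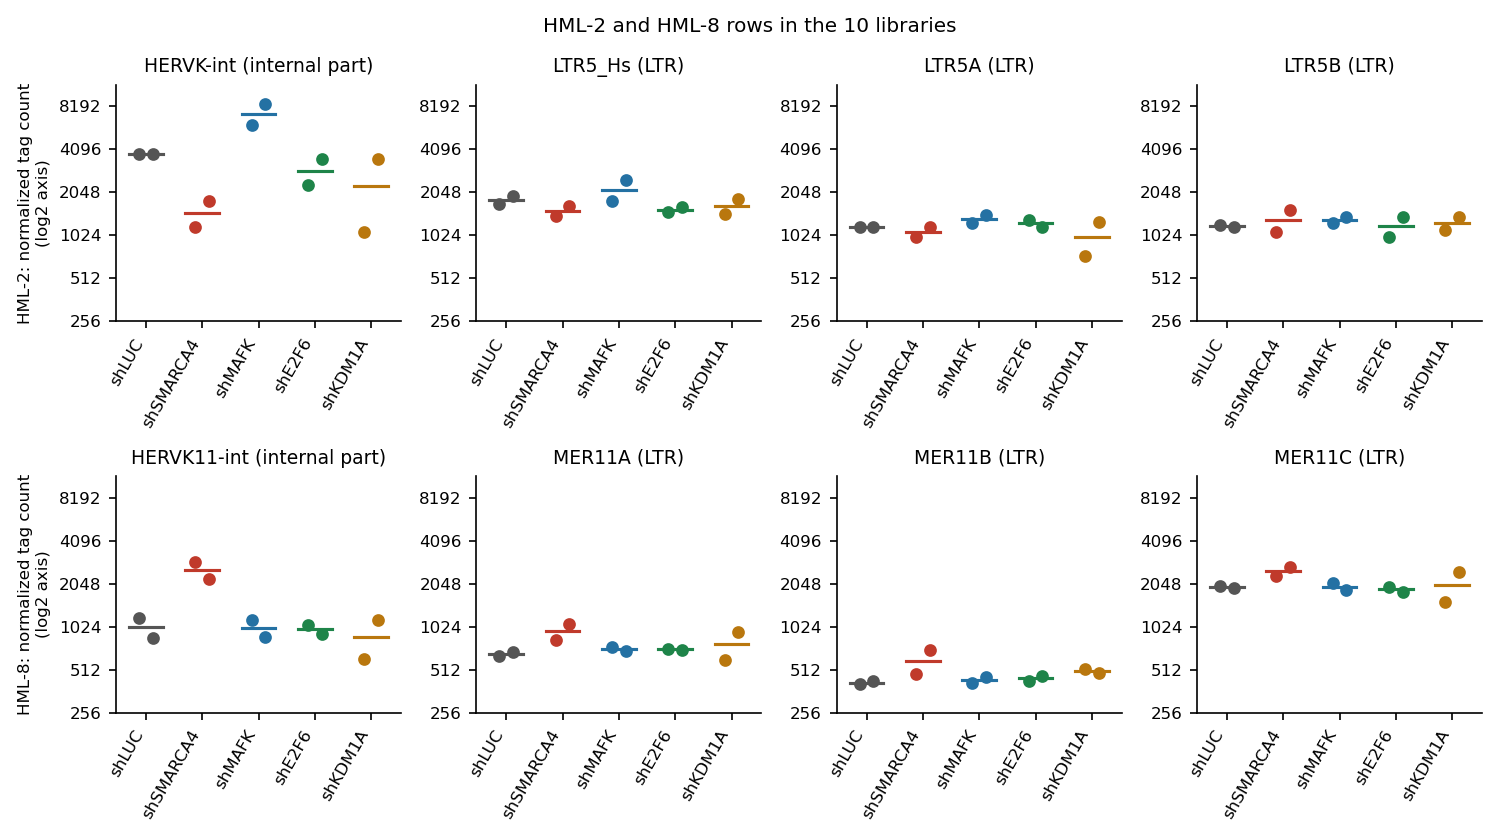
Normalized tag counts (log2 axis) of the internal part and the LTRs of HML-2 (upper row) and HML-8 (lower row) in each library, by group. Points are the 2 libraries of a group and the line is their mean. HERVK-int ranges from 1076 to 8496 while LTR5A and LTR5B lie between 736 and 1548, and HERVK11-int stands at 2910 and 2216 in shSMARCA4 against 1176 and 858 in shLUC.

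HERVK11-int, the internal part of HML-8, was the ERVK row that rose after SMARCA4 knockdown. It was 1176 and 858 in shLUC, and 2910 and 2216 in shSMARCA4. In the other groups it was 1134 and 868 (shMAFK), 1056 and 909 (shE2F6), and 605 and 1134 (shKDM1A). Both shSMARCA4 libraries were above all 8 others, and no other group stood apart from the control. The shSMARCA4 mean was 2563 ± 491 against 1017 ± 225 (SD, n = 2 each), which is 1.34 higher on the log2 scale (SE 0.31, limma adjusted p = 0.0448).

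It was the only ERVK row of 38 that passed in this comparison, in which 4.18% of all rows did. Across the 973 TE rows it was also the only one, and 0 of 274 ERV1, 0 of 115 ERVL and 0 of 76 ERVL-MaLR rows passed. An F-test over the 4 knockdowns called HERVK11-int as well (limma adjusted p = 0.0371), 1 of 38 ERVK rows where 6.64% of all rows were called, and 2 had an unadjusted p under 0.05 (23.6% of all rows). HERVK11-int was lower in shMAFK than in shSMARCA4 by -1.36 on the log2 scale (limma adjusted p = 0.0288). With HERVK-int it made 2 of 38 ERVK rows called in that direct comparison, against 7.76% of all rows. That comparison was chosen for its HERVK-int values, so the call of HERVK-int in it is no separate result. In the direct comparison 3 ERVK rows had an unadjusted p under 0.05 (21.3% of all rows), the third being LTR5_Hs. The 2 groups did not overlap there in 7 rows higher in shMAFK (27.7% of all rows) and 9 lower (28%). The calls of HERVK11-int were near the threshold. The log2 change from shLUC was 1.11 to 1.56 when any 1 of the 4 libraries compared was left out, with a limma adjusted p of 0.126 to 0.319, and 1.34 with the replicate number as a block (0.0595). Without any 1 of the 4 libraries compared, the direct difference kept its sign but not its call (limma adjusted p 0.0828 to 0.207).

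The 3 LTRs of HML-8 were higher in both shSMARCA4 libraries than in either control library, as were 25.6% of all rows, and none passed the threshold. MER11A was 637 and 682 in shLUC and 832 and 1076 in shSMARCA4 (log2 change 0.52, SE 0.22, limma adjusted p = 0.285). MER11B was 408 and 425 in shLUC and 480 and 702 in shSMARCA4 (log2 change 0.48, SE 0.19, limma adjusted p = 0.243). MER11C was 1983 and 1914 in shLUC and 2302 and 2690 in shSMARCA4 (log2 change 0.35, SE 0.22, limma adjusted p = 0.503). All 3 were thus at a smaller change than the internal part. MER11D, an LTR with a similar name that flanks the HML-7 internal part, was 214 and 146 in shLUC and 183 and 170 in shSMARCA4.

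In the other knockdowns the means of the MER11 LTRs of HML-8 lay closer to the control, and none passed the threshold. MER11A was 743 and 689 with MAFK knockdown, 720 and 708 with E2F6 knockdown and 603 and 948 with KDM1A knockdown. MER11B was 413 and 458, 431 and 460, and 520 and 486 in these groups, in the same order. MER11C was 2054 and 1854, 1936 and 1802, and 1534 and 2483, and in shKDM1A the libraries lay on either side of the controls.

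The internal part was set against the sum of its LTR rows in each library, as a description with no test. For HML-2 this ratio was 0.928 and 0.884 in shLUC, 0.336 and 0.405 with SMARCA4 knockdown, 1.41 and 1.61 with MAFK knockdown, 0.603 and 0.835 with E2F6 knockdown, and 0.326 and 0.775 with KDM1A knockdown. Both libraries lay above the control ratio in shMAFK and below it in the other 3 knockdowns, and the lowest ratio was in shKDM1A replicate 1. For HML-8 it was 0.388 and 0.284 in shLUC and 0.805 and 0.496 in shSMARCA4, and in the other groups it lay between 0.228 and 0.353. Across the 8 other groups the mean log2 ratio differed from shLUC by -0.36 to 0.40 in every knockdown. A ratio of this kind shows that the rows differed in their change and not which of them was constant.

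**Figure D2:**
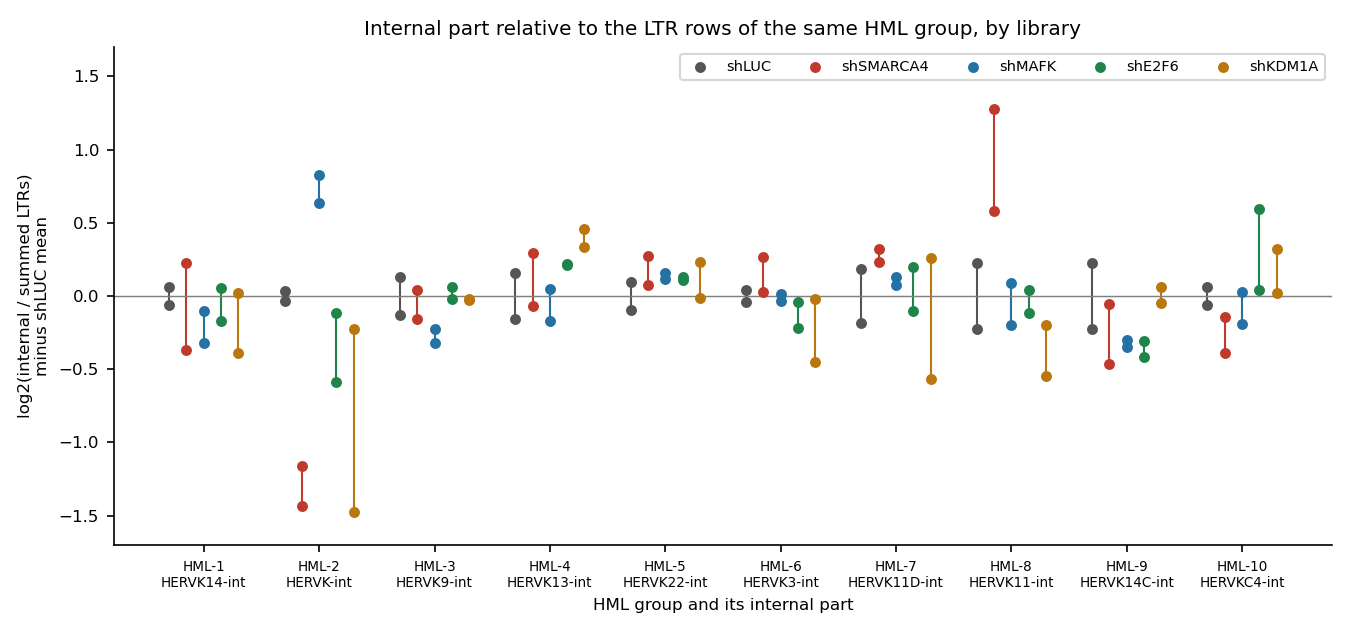
Log2 ratio of each internal part to the summed LTR rows of its HML group, minus the mean of the 2 shLUC libraries, for the 10 groups. Points are libraries, coloured by knockdown, and a line joins the 2 libraries of a group. HML-2 lies above 0 in shMAFK and below 0 in shSMARCA4, shE2F6 and shKDM1A, lowest in shKDM1A replicate 1, and HML-8 lies above 0 in both shSMARCA4 libraries.

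The other 8 internal parts differed little from the control in any knockdown. Their log2 changes lay between -0.19 and 0.27 over all 4 comparisons, and none passed the threshold. HERVK11D-int, the HML-7 internal part, had the upper extreme, at 162 and 160 in shSMARCA4 against 142 and 125 in shLUC. HERVK22-int (HML-5) was 848 and 874 in shMAFK against 787 and 686 in shLUC, with no overlap.

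HERVK14C-int (HML-9) was 78 and 80 in shE2F6 against 86 and 94 in shLUC. HERVK3-int (HML-6) was 1690 and 1614 in shE2F6 against 1697 and 1908. In both rows the shE2F6 libraries lay just below the controls. HERVKC4-int (HML-10), named after a copy inside the complement C4 genes, was 250 and 258 in shSMARCA4 against 264 and 275, and both libraries were lower by a small margin.

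HERVK9-int (HML-3), HERVK13-int (HML-4) and HERVK14-int (HML-1) had no comparison with shLUC in which the groups did not overlap. HERVK9-int ranged from 950 to 1324 over the 10 libraries, HERVK13-int from 206 to 314 and HERVK14-int from 366 to 632. The highest value of HERVK9-int and of HERVK14-int was in shSMARCA4 replicate 2, and the highest of HERVK13-int was in shKDM1A replicate 2.

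Over all ERVK rows after SMARCA4 knockdown, 1 row rose and 0 fell, and 4 rows had an unadjusted limma p under 0.05 (HERVK-int, HERVK11-int, MER11A and MER11B) where 16.3% of all rows did. The 2 groups did not overlap in 11 rows: 8 were higher (25.6% of all rows were) and 3 were lower (25.4% of all rows). The share of ERVK rows was below this background in both directions. So was the share of all TE rows, with 195 of 973 higher and 81 lower. The lower ERVK rows were HERVK-int, LTR5_Hs and HERVKC4-int. The median log2 change was 0.118 over ERVK rows, 0.007 over all rows and 0.068 over all TE rows. It was 0.076 over ERV1, 0.111 over ERVL and 0.112 over ERVL-MaLR rows, so that the middle of ERVK lay close to that of ERVL. Changes beyond 0.5 on the log2 scale were seen in 3 ERVK rows, HERVK-int, HERVK11-int and MER11A, and in 18.9% of all rows.

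After MAFK knockdown limma called 0 of 38 ERVK rows and 0.0135% of all rows. No ERVK row had an unadjusted p under 0.05, which 8.77% of all rows had. The groups did not overlap in 14 rows with higher values (23.8% of all rows) and in 2 with lower values (25.3%). Other TE families also had more higher than lower rows. The counts were 38 and 7 of 115 in ERVL, 30 and 3 of 76 in ERVL-MaLR and 68 and 39 of 274 in ERV1. Over all TE rows they were 249 and 100 of 973. Most of the 14 were LTRs. LTR22C0, an HML-5 LTR, was 99 and 86 in shMAFK against 70 and 66 in shLUC, and LTR22B1, of the same group, was 276 and 286 against 210 and 246. The lower ones were LTR13A (HML-4) at 499 and 504 against 572 and 568, and LTR3 (HML-6) at 466 and 464 against 532 and 522. Their log2 change was -0.18 each. The median log2 change over ERVK rows was 0.05, against -0.004 over all rows and 0.033 over TE rows.

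After E2F6 knockdown limma called 0 of 38 ERVK rows and 0% of all rows, and 0 ERVK rows had an unadjusted p under 0.05 (5.09% of all rows did). The 2 groups were apart in 6 rows with higher values (20.3% of all rows) and 8 with lower values (20.4%). The largest of the higher ones were small: LTR22E was 312 and 326 against 278 and 304, MER9a1 of HML-3 was 212 and 196 against 178 and 194, and LTR3B_ was 246 and 230 against 216 and 218. LTR22C0 was 47 and 57 in shE2F6 against 70 and 66 in shLUC, a log2 change of -0.39. This was the LTR with the lowest change there, and among the few ERVK rows with a mean under 100. The median over ERVK rows was 0.04, against -0.003 over all rows and 0.048 over TE rows.

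After KDM1A knockdown limma called 0 of 38 ERVK rows and 0.0271% of all rows, and 0 ERVK rows had an unadjusted p under 0.05 (11.5% of all rows did). The groups did not overlap in 2 rows with higher values (17.9% of all rows) and 1 with lower values (20.9%). The higher ones were MER11B, at 520 and 486 against 408 and 425, and LTR22C0, at 87 and 74 against 70 and 66. The lower one was HERVK-int. The median log2 change was -0.028 over ERVK rows, against -0.018 over all rows and 0.056 over TE rows. It was 0.263 over ERVL, 0.143 over ERVL-MaLR and 0.081 over ERV1 rows. Relative to the shLUC mean, the ERVK median was -0.262 in shKDM1A replicate 1 and 0.122 in replicate 2. In the same order it was 0.242 and 0.205 over ERVL, 0.086 and 0.216 over ERVL-MaLR, and 0.017 and 0.181 over ERV1 rows. The difference between these families was not tested.

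**Figure D3:**
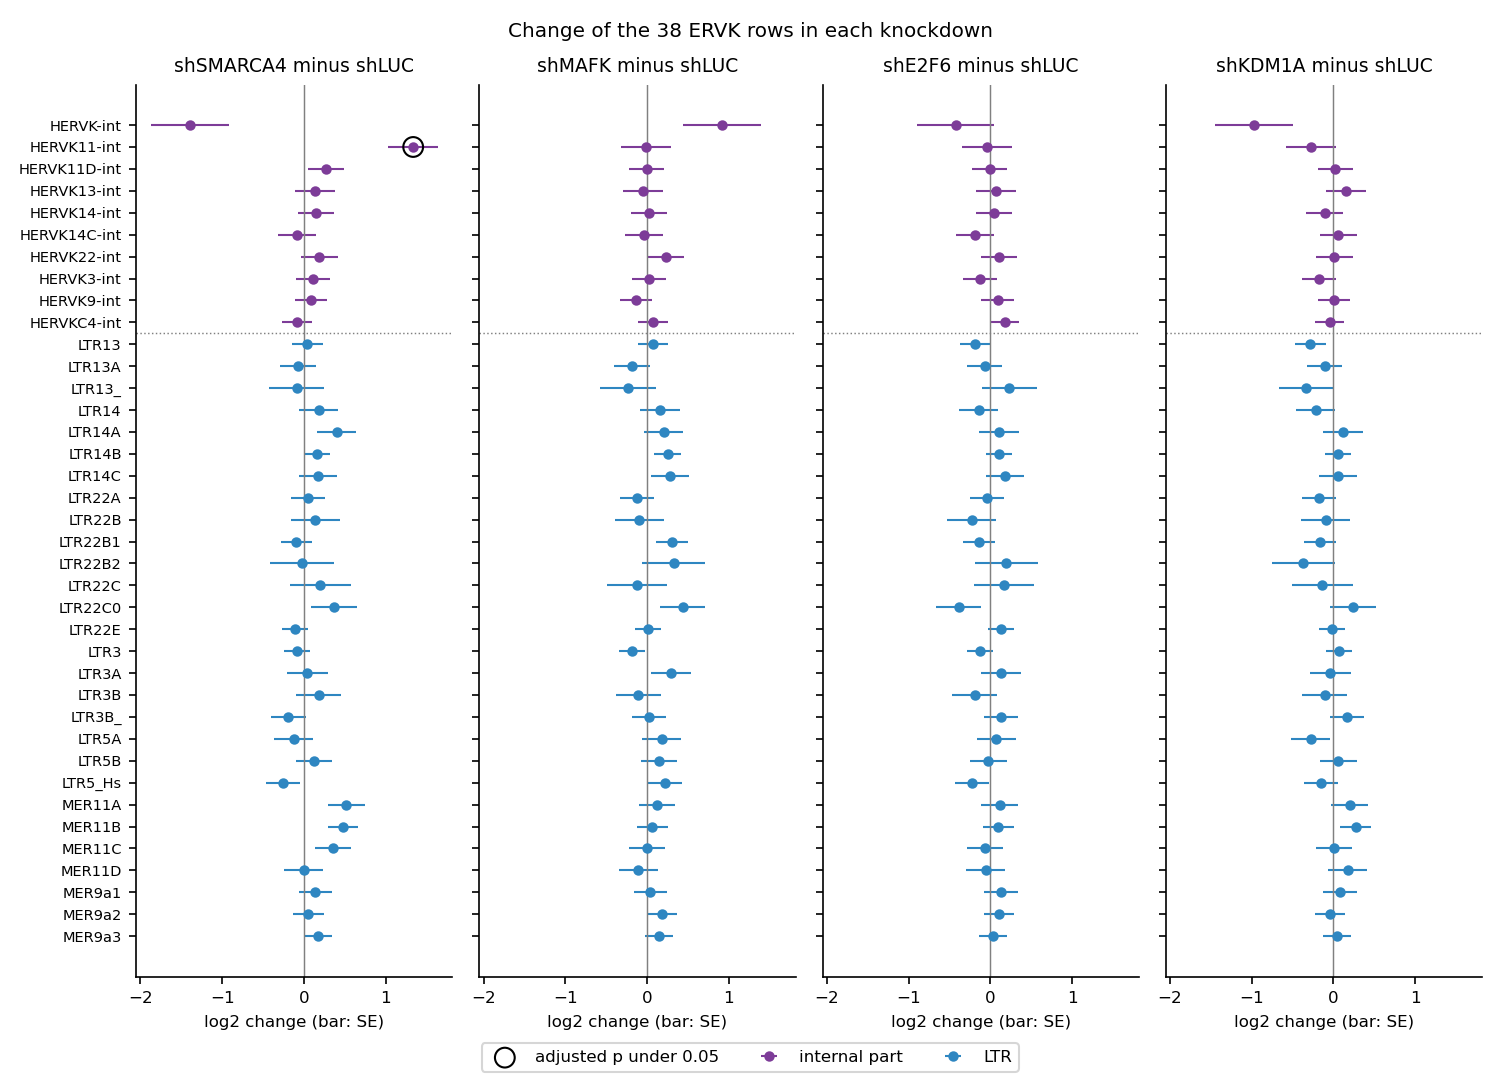
Log2 change (difference of mean log2(value + 1), bars show the SE from limma) of the 38 ERVK rows in each knockdown against shLUC. Internal parts are above the dotted line and LTRs below, and a ring marks an adjusted p under 0.05. HERVK-int is the row farthest below 0 in shSMARCA4 and farthest above 0 in shMAFK, and the ring is on HERVK11-int in shSMARCA4.

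The libraries of a group differed in their general ERVK level in shSMARCA4 and shKDM1A. Relative to the shLUC mean, the median over the 38 rows was -0.058 and 0.236 on the log2 scale in the shSMARCA4 libraries and -0.262 and 0.122 in the shKDM1A libraries. In the shMAFK libraries it was 0.068 and 0.063, and in the shE2F6 libraries -0.018 and 0.052. Replicate 2 was above replicate 1 in 32 of 38 ERVK rows in shSMARCA4 and likewise in shKDM1A, where all 10 internal parts were. The same held for 80% of TE rows in shSMARCA4 and 67.7% in shKDM1A, but for only 48% and 49.9% of genes. The share of TE rows in the total was 12.8% and 16% in the 2 shKDM1A libraries, with 14.5% in the controls. The ERVK medians of both knockdowns therefore rest on which library is read: without replicate 2 they were -0.058 in shSMARCA4 and -0.262 in shKDM1A. HERVK-int and HERVK11-int kept to opposite sides of the control in both shSMARCA4 libraries.

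**Figure D4:**
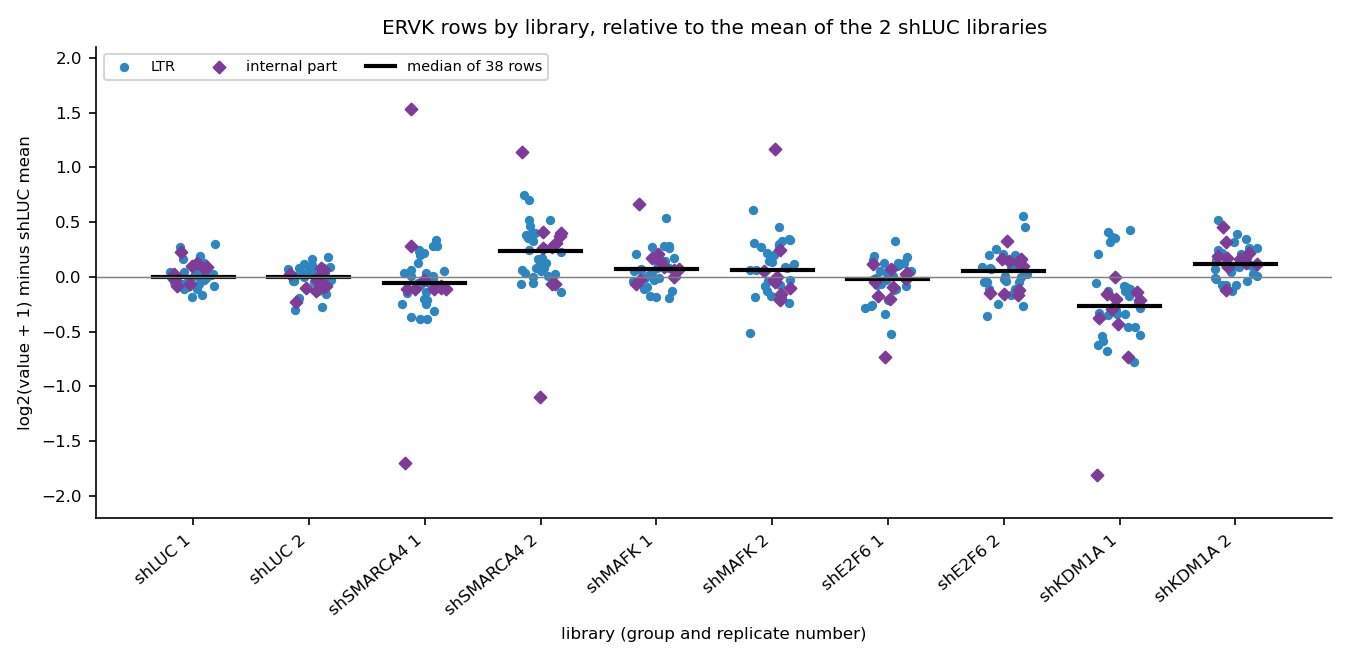
Log2(value + 1) of each ERVK row minus its mean in the 2 shLUC libraries, by library. Diamonds are internal parts, dots are LTRs and black lines are the median of the 38 rows. Most rows sit within 0.5 of the control, the medians of the shSMARCA4 and shKDM1A libraries differ within their group, and the lowest diamonds in shSMARCA4 and shKDM1A replicate 1 are HERVK-int.

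Summed over all 38 rows, ERVK came to 24042 and 24041 in shLUC, 0.105% of the total in each. The shMAFK libraries came to 27127 and 30120, and the shSMARCA4 libraries to 22876 and 26597. The shE2F6 libraries came to 21801 and 23693, and the shKDM1A libraries to 17648 and 26144. Both shMAFK libraries were above the controls, at 119% of the shLUC mean (exact permutation p = 0.33, two-sided, the smallest that 2 against 2 libraries allow). HERVK-int alone made up 15.7% of the ERVK sum in both controls, 5.1% and 6.63% in shSMARCA4 and 22.2% and 28.2% in shMAFK. The sum of the internal parts without HERVK-int was 101% of the control in shMAFK and 134% in shSMARCA4. In shSMARCA4 the summed internal parts stood at 96.6% of the control with HERVK-int included, as the 2 largest changes had opposite signs.

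Genes known to silence or activate ERVK elements were examined from a list of 31 symbols, of which 29 were in the table. Against shLUC limma called 1 of the 29 in shSMARCA4, where 4.18% of all rows were called, and 0 in each of the other 3 knockdowns. An unadjusted p under 0.05 was found for 5 of the 29 in shSMARCA4 (16.3% of all rows), 4 in shMAFK (8.77%), 0 in shE2F6 (5.09%) and 4 in shKDM1A (11.5%), of which 1 is the hairpin target KDM1A. The called count in shSMARCA4 was therefore near the background. The gene called was TNRC18, which encodes a reader of trimethylated H3K9 that takes part in silencing endogenous retroviruses. It lies on the minus strand of chromosome 7 from 5306790 to 5425414 (GRCh38). TNRC18 was 72 and 101 in shLUC, 948 and 942 with SMARCA4 knockdown, 254 and 230 with MAFK knockdown, 83 and 58 with E2F6 knockdown, and 336 and 158 with KDM1A knockdown. It rose in shSMARCA4 by 3.46 on the log2 scale (limma adjusted p = 0.00128). It was higher than in both controls in shMAFK and shKDM1A as well, without passing.

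Directly between shMAFK and shSMARCA4, 3 of the 29 genes were called, where 7.76% of all rows were, so this count too is near the background. SOX2, a pluripotency factor with sites in LTR5_Hs, was 7576 and 7680 in shMAFK and 4426 and 4748 in shSMARCA4 (log2 difference 0.73, limma adjusted p = 0.011), with 6408 and 6928 in shLUC. NANOG, listed for the same reason, differed in the opposite direction and was not called. It was 2576 and 1640 in shMAFK and 4613 and 3699 in shSMARCA4 (log2 difference -1.01, limma adjusted p = 0.0717), with 2512 and 2639 in shLUC. POU5F1 overlapped between the groups (log2 difference 0.11), and KLF4 was not in the table. TNRC18 was lower in shMAFK by -1.96 (limma adjusted p = 0.0101). SUV39H1, an H3K9 methyltransferase, was 247 and 254 in shMAFK and 446 and 406 in shSMARCA4 (log2 difference -0.76, limma adjusted p = 0.0226), with 497 and 389 in shLUC. Their part in the HERVK-int and HERVK11-int values was not tested, nor was that of the mesendoderm markers with a sum of 4239 and 856 in shSMARCA4 against 34 and 48 in shLUC.

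The zinc finger genes on the list were not called in any comparison. ZNF808, whose protein binds MER11 elements, was 392 and 438 in shSMARCA4 and 290 and 336 in shLUC (limma adjusted p = 0.289). ZNF417 and ZNF587, whose proteins bind HML-2 sequence, ranged over the 10 libraries from 302 to 597 and from 1031 to 1402. SETDB1, the methyltransferase of this pathway, ranged from 1066 to 1353 and was not called either.

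One gene row carries the family name. ERVK3-1 (chromosome 19, 58305319 to 58315663, plus strand, GRCh38) was 599 to 690 in the 10 libraries, and its log2 changes lay between -0.10 (shE2F6) and 0.01 (shKDM1A), none of them called. SVA retroposons, whose 3′ portion derives from an HML-2 env and LTR, have 6 rows. How reads were shared between them and the HML-2 rows is not stated. In shKDM1A all 6 had a mean above shLUC, where 58.1% of TE rows and 47.8% of all rows had a positive log2 change. SVA_A, for example, had a log2 change of 0.64 (limma adjusted p = 0.375). SVA_B, SVA_E and SVA_F overlapped the controls. Every SVA row was higher in shKDM1A replicate 1 than in replicate 2, such as SVA_E at 3060 and 1764 against 1614 and 1914 in shLUC. HERVK-int and LTR5_Hs had shKDM1A means below shLUC, and both were lower in replicate 1. In shSMARCA4 and shMAFK the log2 changes of the SVA rows lay between -0.40 and 0.31, and no SVA row passed in any comparison with shLUC.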

How the data were processed

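RNA-seq of 10 libraries was used, with groups and replicate numbers from the sample titles. The authors deposited normalized values, read here as scores and not raw counts, 1 column per library. STAR, STARsolo and hg38 are named in the submitters' processing notes without a role. The normalization method, the annotation of repeats and the sharing of multi-mapped reads are not given in the sources used here; the values have the form that quantile normalization leaves. A deposited table of group means was not used. Every column of values was matched to a library.

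Values were analysed as log2(value + 1), a scale that understates the change of low rows, with limma 3.58.1 in R 4.3.3 (lmFit, eBayes with trend, two-sided). A single fit of all 10 libraries left 5 residual degrees of freedom, with Benjamini-Hochberg adjustment over all rows at 0.05. A minimum row mean of 10 removed 0 rows. The 4 knockdowns were compared among themselves by limma's moderated F-test. The fit was tested on simulated data. Tables and plots used Python 3.11.15, pandas 2.3.3, scipy 1.17.1 and matplotlib 3.10.9. Gene positions are from GENCODE on GRCh38.

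Named rows were all internal parts, the LTRs of HML-2 and HML-8, all called rows, per comparison the 3 largest changes each way among rows with a mean of at least 50 whose groups did not overlap, and the called genes of the list. Other rows and genes given as examples were chosen after their values were seen. The ERVK rows, the gene lists and this rule were chosen with earlier results of these data known. Replicate numbers were not treated as pairs: same-numbered libraries deviated together with correlations of -0.05 to 0.337, of which 2 of 10 were above 0.1. Alternatives covered the pseudocount, the filter, rescaling, group weights, the variance model, which libraries were fitted, the rows in the fit and the replicate block.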

Additional observations from a re-analysis of the deposited data

How the results depend on the processing

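With shSMARCA4, the ERVK count changed from 1 to 0 without a variance trend, with TE rows only or with the replicate block, and to 2 (HERVK-int added) with group weights, without both shKDM1A libraries or in a fit of the 2 groups alone. Leaving out 1 library gave 0 to 2: 0 without any 1 of the shSMARCA4, shLUC, shMAFK or shE2F6 libraries and 2 without either shKDM1A library. The count among the 4 knockdowns changed from 1 to 0 without a trend or with TE rows only, and to 2 with group weights or without both shKDM1A libraries. It was 0 to 6 when 1 library was left out: 2 without shKDM1A replicate 1, 6 without shKDM1A replicate 2 and 0 without any 1 of the other 8. With the replicate block it was 1, but of another row: HERVK-int had a limma adjusted p of 0.0219 and HERVK11-int 0.0517. The shKDM1A count was 0 to 3, with 3 without shKDM1A replicate 2. The shMAFK and shE2F6 counts were 0 in every alternative run. Median log2 changes, when 1 library was left out, ranged from -0.058 to 0.236 in shSMARCA4 and from -0.262 to 0.122 in shKDM1A. Fits without a library leave a group with 1 library, which is then assumed to vary like the others. No value reversed among those called. In shSMARCA4, HERVK11-int had a limma adjusted p of 0.0599 without a trend, 1 with TE rows only and 0.0595 with the replicate block. The causes were not tested. Depth is unknown, so no detection limit can be set.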
